A study of Mus musculus with 8 samples.

Results

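Bone marrow-derived macrophages that lack the creatine transporter Slc6a8 were compared with and without IL-4, in 1 untreated and 1 IL-4-treated library, which are 2 of the 8 RNA sequencing libraries of the study. The mice had the C57BL/6 background and the genotype Slc6a8-/y, called knockout (KO) here, or were wild-type (WT). Macrophages were grown from bone marrow over 5 days in medium with 10% M-CSF, and the treated cells were then given 10 ng/mL IL-4 for 6 hours. The matching WT libraries, 1 untreated and 1 with IL-4, are given beside the KO libraries, while the other 4 libraries are peritoneal macrophages with another cytokine and were not used. The study asks how creatine shapes macrophage polarization, and the comparison here shows which transcripts differ after IL-4 when creatine uptake through this transporter is missing. Whether the 2 libraries of a genotype came from separate animals is not in the labels.

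IL-4 binds a receptor on macrophages that activates Janus kinases and the transcription factor STAT6. STAT6 then turns on the program called alternative activation, in which cells make arginase, mannose receptor, other lectins and tissue repair factors. Creatine carries high-energy phosphate in cells, and it is either taken up by Slc6a8 or made from arginine and glycine in a pathway that starts with the enzyme Gatm.

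A gene was compared when it reached 5 FPKM (fragments per kilobase of transcript, scaled to the library's fragment total) in either KO library, which left 8187 of the 17416 genes listed. The response is the log2 ratio of FPKM + 1, IL-4 over untreated, and genes are counted as higher or lower at 2-fold unless another limit is named. With 1 library on each side the ratio is a size without a test. Rose and fell are kept for genes that passed edgeR's test of the IL-4 term, fitted to the KO and WT pairs together, with a Benjamini-Hochberg adjusted p under 0.05. That fit had 1 residual degree of freedom and called 1542 of 12879 genes as risen (12.0%) and 1189 as fallen (9.23%). No group has a replicate, so this degree of freedom holds only the difference between the KO and WT responses. The p-values rest on these 4 libraries and set the IL-4 change against that difference, not against a spread of replicates. With a common coefficient of variation of 4.57%, which edgeR calls biological, small differences pass.

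The targeted gene matched the genotype labels. Slc6a8 was at 1.71 FPKM in untreated and 1.15 FPKM in IL-4-treated KO cells, against 97.34 and 87.92 FPKM in WT cells. The 4 libraries held total expected counts of 20553654 to 21221526, and a gene near 5 FPKM had a median of 313 to 331 counts. All 18 macrophage identity markers were compared, among them Csf1r (the receptor for M-CSF) at 1109.33 and 1233.53 FPKM and Cd68 at 1744.57 and 1723.54 FPKM in untreated and treated KO cells. The 18 summed to 26065 and 23134.5 FPKM there, with 8 log2 ratios above 0 and 10 below. Of them only Cd14 was at least 2-fold lower. In edgeR's test 6 of the 18 rose and 4 fell, beside 12.0% and 9.23% of all genes tested. Markers of B cells summed to 6.32 to 7.32 FPKM over the 4 libraries, with Pax5 at 0, and those of T and NK cells to 1.71 to 3.94 FPKM, with Cd3e at 0. Dendritic cell markers summed to 160.89 and 208.11 FPKM in untreated and treated KO cells and 159.63 and 165.04 FPKM in WT cells. Neutrophil markers summed to 59.21 and 71.76 FPKM in KO and 53.36 and 74 FPKM in WT cells. Of these 2 lists, 2 of 12 and 1 of 12 genes reached 5 FPKM in a KO library. Batf3, 1 of the 2 dendritic cell genes, was at 0.83 and 5.49 FPKM in KO cells. Most of the dendritic cell sum therefore came from the other gene, with a KO log2 ratio of 0.34. The 12 fibroblast markers summed to 292.88 and 253.24 FPKM in untreated and treated KO cells and to 531.88 and 502.70 FPKM in the WT cells. The summed level of these fibroblast markers was lower in both KO than in both WT libraries, and its part in the results was not tested. In bulk RNA, fewer cells of a type and less RNA per cell cannot be told apart.

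After IL-4, 101 genes were higher in KO cells by 2-fold or more (1.23% of those compared), and 25 were lower (0.305%). Every count of list members at 2-fold given here is to be read beside these shares. By the looser limit of 1.5-fold, 272 were higher (3.32%) and 131 lower (1.60%), against 260 (3.16%) and 164 (1.99%) in the WT pair. The median log2 ratio over all genes was -0.00062, and 95.1% of genes stayed within 1.5-fold. Among the higher genes 23 reached 4-fold and 6 reached 8-fold, and together they went from 0.470% to 1.43% of all counts. The lower genes went from 0.305% to 0.133% of counts. A total of 8 higher genes were below 1 FPKM in untreated cells, 39 were already at 10 FPKM or more, and 14 passed 100 FPKM after IL-4. Just inside the 2-fold limit lay Aldh1b1 (4.06 and 9.13 FPKM), Gpr183 (8.93 and 18.92 FPKM) and Arrdc3 (13.7 and 6.35 FPKM), and just outside lay Ptgir (2.23 and 5.44 FPKM) and Rsph9 (6.26 and 2.66 FPKM).

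**Figure D1:**
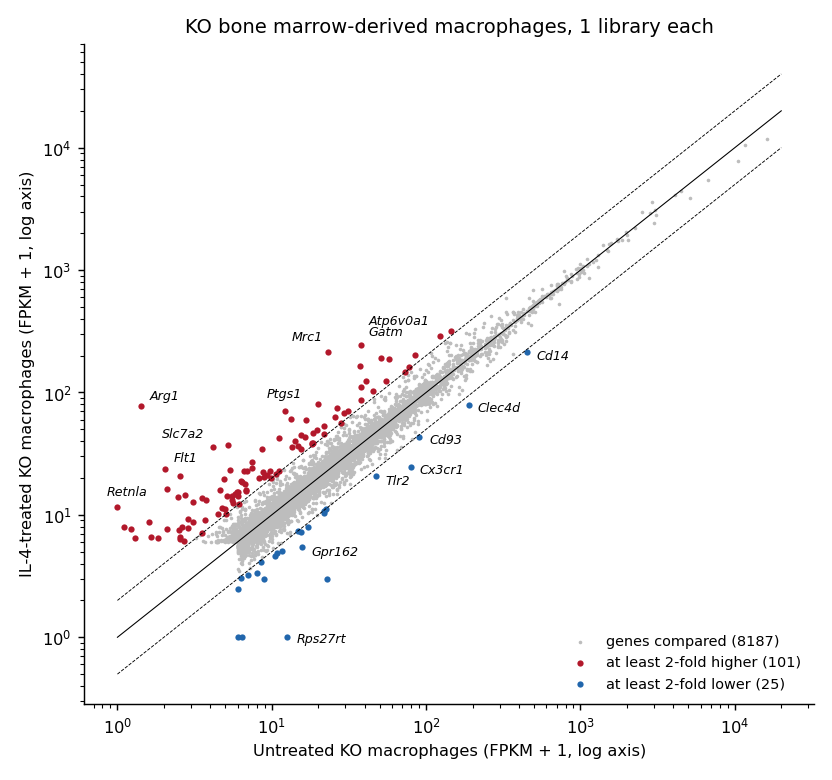
Each point is 1 of 8187 genes, with its level in untreated KO cells on the horizontal and in IL-4-treated KO cells on the vertical log axis, both as FPKM + 1. The solid line marks equal levels and the dashed lines 2-fold differences, with 101 genes on or above the upper and 25 on or below the lower dashed line.

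RefSeq promoter windows (GRCm38.p6, 250 bases before to 50 after the transcript start) of the compared genes were searched for TTC and GAA with 4 bases of any kind between them. This is the spaced palindrome that STAT6 is known to bind. The 4 windows below are shown because their genes were at least 2-fold higher in KO cells, differ in kind (a secreted protein, a cytoskeletal protein, a lectin and a membrane protein) and hold the motif. They are printed 5′ to 3′ on the gene's strand with the motif in capitals.
Retnla, chr16:48842359-48842658, plus strand: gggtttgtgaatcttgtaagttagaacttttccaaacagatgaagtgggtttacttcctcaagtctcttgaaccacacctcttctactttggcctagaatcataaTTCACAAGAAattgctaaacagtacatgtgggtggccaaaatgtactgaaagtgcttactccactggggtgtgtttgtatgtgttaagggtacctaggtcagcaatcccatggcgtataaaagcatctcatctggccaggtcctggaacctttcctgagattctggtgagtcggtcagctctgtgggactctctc
Ablim1, chr19:57197582-57197881, minus strand: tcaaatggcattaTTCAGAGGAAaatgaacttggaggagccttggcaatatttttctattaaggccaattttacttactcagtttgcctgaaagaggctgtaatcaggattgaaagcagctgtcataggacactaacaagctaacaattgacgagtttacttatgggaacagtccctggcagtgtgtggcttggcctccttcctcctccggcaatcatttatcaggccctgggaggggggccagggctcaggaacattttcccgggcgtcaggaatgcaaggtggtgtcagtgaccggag
Clec7a, chr6:129472730-129473029, minus strand: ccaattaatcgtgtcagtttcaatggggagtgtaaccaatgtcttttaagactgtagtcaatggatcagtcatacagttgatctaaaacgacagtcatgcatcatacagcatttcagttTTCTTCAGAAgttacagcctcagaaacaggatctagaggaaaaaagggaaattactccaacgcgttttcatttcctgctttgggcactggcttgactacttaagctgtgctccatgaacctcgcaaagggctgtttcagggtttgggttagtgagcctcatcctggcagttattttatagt
Tmem26, chr10:68723496-68723795, plus strand: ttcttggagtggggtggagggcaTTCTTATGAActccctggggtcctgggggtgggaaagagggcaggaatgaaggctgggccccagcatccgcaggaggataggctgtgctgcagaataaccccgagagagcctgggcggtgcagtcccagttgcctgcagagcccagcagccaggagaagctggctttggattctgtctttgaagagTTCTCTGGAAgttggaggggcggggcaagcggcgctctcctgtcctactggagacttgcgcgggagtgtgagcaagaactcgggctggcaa
The capitals begin 145 bases before the start in Retnla, 237 in Ablim1, 131 in Clec7a and, in Tmem26, which holds 2 of them, 227 and 41. Ablim1 has 5 windows in the table, and the other 4 do not hold the motif. The 2 windows of Clec7a overlap and hold the same single site, 131 and 125 bases before their starts.
The motif reads the same on both strands, so 1 search covers both. It was in the window of 9 of the 73 higher protein-coding genes that have one (12.3%), in 0 of 10 lower genes and in 426 of all 6608 compared genes with a window (6.45%). The palindrome with 3 bases between TTC and GAA, counted on its own even where a window held both, was in 3 of the 73 (4.11%), in 0 of the 10 and in 517 of the 6608 (7.82%). Over all windows of the same length in the RefSeq table the shares were 6.95% and 8.30%. Among the 12 genes with the highest KO ratios, only Retnla and Ablim1 had a window with the 4-base motif. The windows of Flt1, Mrc1, Socs1, Il4i1, Egr2, Tarm1, Gatm and Ptgs1 held neither motif. Arg1 and Slc7a2 had no window. A match is a description of these letters and not a measured binding site.

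Arg1, the arginase that splits arginine into ornithine and urea, had the highest ratio of all. It was at 0.42 FPKM in untreated and 76.97 FPKM in IL-4-treated KO cells, and at 1.28 and 139.89 FPKM in the WT cells. Its 13 counts became 2412 counts in KO cells, a count ratio of 185 with a 95% exact interval of 108 to 348, which covers counting error only. Reads copied by PCR are not independent molecules, so all such intervals are lower limits to the real error. The gene (chr10:24915207-24927470) rose in edgeR's test by 7.04 ± 0.11 (SE) on the log2 scale, with an adjusted p of 3.03e-10. Levels after IL-4 were higher in both genotypes than in their untreated cells, with log2 ratios of 5.78 (KO) and 5.95 (WT). The WT count ratio was 109 (95% counting interval 80.1 to 153). On counts the KO ratio was the larger one and on FPKM + 1 the smaller one, and the count intervals overlap. Slc7a2, the transporter that brings arginine into activated macrophages, stood at 3.15 and 34.58 FPKM in KO and 3.20 and 39.41 FPKM in WT cells, untreated and treated. Of the 19 genes of arginine, polyamine and proline metabolism that were compared, Arg1 and Slc7a2 were at least 2-fold higher and none was lower. Over all genes compared the shares were 1.23% and 0.305%. In edgeR's test 8 of 21 rose and 0 fell, beside 12.0% and 9.23% of all genes tested. Eif5a (231.6 and 340.68 FPKM in KO cells), a translation factor modified with a polyamine, was among the others that rose. So was Sat1 (166.05 and 244.32 FPKM), which acetylates polyamines. Odc1, which makes putrescine from ornithine, was at 17.02 and 17.68 FPKM. Azin2, a regulator of that enzyme outside the list, was at 1.63 and 6.90 FPKM, with log2 ratios of 1.59 (KO) and 1.54 (WT).

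Gatm, the enzyme that makes the creatine precursor from arginine and glycine, was among the most abundant of the higher genes. It was at 36.97 FPKM in untreated and 243.71 FPKM in IL-4-treated KO cells, and at 32.60 and 214.73 FPKM in WT cells. The count ratio in KO cells was 6.59 (95% counting interval 6.28 to 6.93), and the log2 ratios were 2.69 (KO) and 2.68 (WT). The ratios in cells with and without the transporter differed by 0.01 log2 units. Gatm rose by 2.76 ± 0.05 in edgeR's fit, with an adjusted p of 6.29e-10. The other compared genes of creatine handling stayed within 1.5-fold in KO cells. Gamt, which completes creatine synthesis, was at 17.82 and 18.62 FPKM, and Ckb, a cytosolic creatine kinase, was at 257.85 and 215.55 FPKM.

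The set of known IL-4 and STAT6 target genes was mostly higher in KO cells. Of its 49 members 34 reached 5 FPKM in a KO library, and 24 of these were higher by 2-fold or more and 0 lower, beside 1.23% and 0.305% of all genes. The list was chosen with results of these data known, so that the count is a description. The median log2 ratio was 1.77 in KO and 1.93 in WT cells, against -0.00062 and -0.02 over all genes. In edgeR's test 36 of 44 members rose and 3 fell, beside 12.0% and 9.23% of all genes tested. The 10 compared members below 2-fold ran from Pparg, a lipid-sensing nuclear receptor, at 27.05 and 51.40 FPKM to Stab1, a scavenger receptor, at 181.57 and 130.70 FPKM. Il4ra, the IL-4 receptor chain, was at 25.10 and 24.47 FPKM, and Fabp4, a fatty acid carrier, was at 67.87 and 49.13 FPKM. Below the limit of 5 FPKM, Cdh1, which encodes E-cadherin, went from 0.04 to 3.94 FPKM, Rnase2a from 0.00 to 3.58 FPKM, Cish, a feedback inhibitor, from 0.25 to 2.23 FPKM and Pdcd1lg2, a ligand of the checkpoint receptor PD-1, from 0.07 to 1.74 FPKM.

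Among surface receptors, Mrc1, the mannose receptor, was at 22.19 and 214.94 FPKM in KO and 28.07 and 266.33 FPKM in WT cells, untreated and treated. The KO count ratio was 9.69 (95% counting interval 9.30 to 10.1). Both treated libraries lay far above both untreated ones, and Mrc1 (chr2:14229414-14332023) rose by 3.30 ± 0.05 with an adjusted p of 3.03e-10 in edgeR's test. Flt1, a receptor for vascular endothelial growth factors, was at 1.03 and 22.80 FPKM in KO and 0.83 and 18.22 FPKM in WT cells, a KO count ratio of 22.03 (18.6 to 26.3). Clec10a, a galactose-binding lectin, was at 1.45 and 12.87 FPKM in KO cells, its relative Mgl2 at 0.30 and 5.42 FPKM, and Clec7a, the beta-glucan receptor Dectin-1, at 36.41 and 162.93 FPKM. Clec10a and Mgl2 are close copies of each other, and reads could have been split between them. Tarm1, an activating receptor of myeloid cells, was at 0.10 and 6.95 FPKM in KO and 0.10 and 9.15 FPKM in WT cells, and its 2 untreated counts in KO cells left a wide interval of 18.7 to 574 around the count ratio of 68.8.

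Other C-type lectins were lower after IL-4. Clec4d, a partner of Mincle that senses microbial lipids, was at 187.66 and 78.50 FPKM in KO and 221.09 and 90.80 FPKM in WT cells. Clec4e, which encodes Mincle, was at 9.87 and 3.85 FPKM in KO cells, and Clec4n, the fungal receptor Dectin-2, at 5.02 and 1.5 FPKM. These 3 genes are neighbours on chromosome 6, between position 123229843, the start of Clec4n, and position 123289871, the end of Clec4e. Of the 22 lectins and scavenger receptors compared, 5 reached 2-fold upward (Mrc1, Clec10a, Mgl2, Clec7a and Clec4a3) and 3 downward (Clec4d, Clec4e and Clec4n). By this limit 1.23% of all genes were higher and 0.305% lower. In edgeR's test 7 of 24 rose and 10 fell, beside 12.0% and 9.23% of all genes tested. Cd36, which takes up lipids, was at 72.24 and 123.42 FPKM and rose, while Mertk, a receptor for dying cells, was at 31.69 and 19.66 FPKM and fell.

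Fcgr2b, the inhibitory Fc receptor, was at 50.08 and 188.60 FPKM in KO and 49.89 and 204.63 FPKM in WT cells. It was the only one of 17 compared Fc and Toll-like receptor genes that was at least 2-fold higher, and 2 were at least 2-fold lower. Over all genes compared 1.23% were higher and 0.305% lower by this limit. In edgeR's test 5 of 18 genes of this list rose and 4 fell, beside 12.0% and 9.23% of all genes tested. Cd14, which hands lipopolysaccharide to Toll-like receptors, was at 450.46 and 211.77 FPKM in KO and 426.53 and 186.39 FPKM in WT cells, and Tlr2, a receptor for bacterial lipoproteins, at 46.65 and 19.64 FPKM in KO and 39.05 and 15.16 FPKM in WT cells. Both fell in edgeR's test, by 1.10 ± 0.05 and by 1.27 ± 0.06, with adjusted p-values of 2e-07 and 2.47e-07. Tlr4, the lipopolysaccharide receptor itself, was at 18.36 and 28.29 FPKM in KO cells and rose, as did Tlr8 at 70.22 and 133.01 FPKM.

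**Figure D2:**
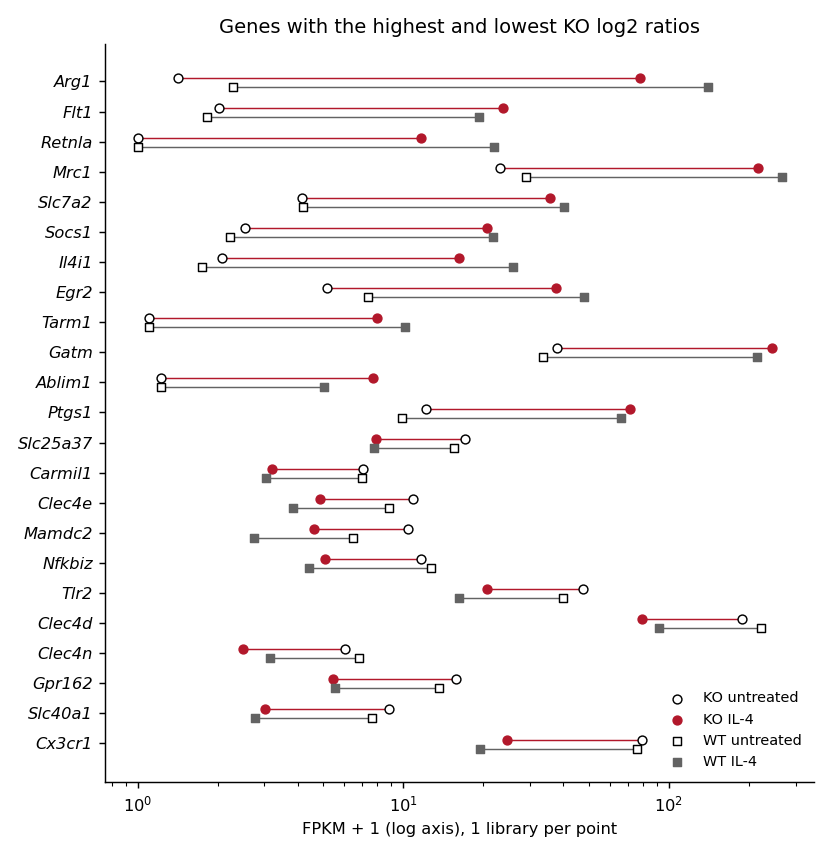
FPKM + 1 on a log axis in each of the 4 libraries, for the 12 protein-coding genes with the highest KO ratio and 11 of the 12 with the lowest (Rps27rt is left out). Open symbols are untreated and filled ones IL-4-treated cells, circles KO and squares WT, and in every gene shown the filled and open symbols are ordered the same way in both genotypes.

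Retnla, a secreted protein of alternatively activated macrophages, had 0 counts in both untreated libraries. It reached 129 counts (10.65 FPKM) in treated KO and 246 counts (20.97 FPKM) in treated WT cells. Against a floor of 3 counts per library this was at least 42.9-fold higher in KO cells and at least 84.4-fold higher in WT cells, and the counting error of the treated libraries is not part of these bounds. Retnla was called by edgeR (adjusted p of 9.55e-07) and not by DESeq2 (adjusted p of 0.115), and its fitted size depends on how a count of 0 is treated. Chil3, a chitinase-like secreted protein, was at 1.08 and 6.66 FPKM in KO and 1.08 and 7.80 FPKM in WT cells. Il4i1, a secreted enzyme that oxidises amino acids, was at 1.08 and 15.15 FPKM in KO and 0.74 and 25 FPKM in WT cells.

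Signalling genes mostly stayed within 2-fold, as did most of all genes compared. Of 31 compared genes of the IL-4 receptor and the JAK-STAT pathway, Socs1 and Jak2 were at least 2-fold higher and none was lower. Over all genes 1.23% were higher and 0.305% lower by this limit. The median log2 ratio of the list was 0.03. Socs1, which blocks Janus kinases, was at 1.54 and 19.72 FPKM in KO and 1.22 and 20.86 FPKM in WT cells. Its KO count ratio was 12.8 (95% counting interval 9.24 to 18.1). Jak2, a Janus kinase, was at 7.95 and 19.28 FPKM in KO cells. Stat6 itself was at 92.66 and 88.09 FPKM, and Il2rg, the shared receptor chain, was at 75.81 and 77.00 FPKM. In edgeR's test 8 of 37 members rose and 3 fell, beside 12.0% and 9.23% of all genes tested. Those that fell included Il13ra1, the receptor chain shared with IL-13, at 3.56 and 1.97 FPKM.

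Transcription factors held several of the large ratios. Egr2, an immediate early factor that acts in alternative activation, was at 4.18 and 36.49 FPKM in KO and 6.34 and 47.03 FPKM in WT cells, a KO count ratio of 8.73 (7.68 to 9.95). Irf4, an interferon regulatory factor of this program, was at 0.61 and 7.74 FPKM in KO and 0.31 and 7.60 FPKM in WT cells. Nfil3 was at 7.64 and 33.37 FPKM, Klf4 at 13.82 and 35.77 FPKM and Myc, a driver of growth, at 7.28 and 19.00 FPKM in KO cells. Of 35 macrophage transcription factors compared, 8 reached 2-fold upward and 0 downward, beside 1.23% and 0.305% of all genes. In edgeR's test 21 of 42 rose and 7 fell, beside 12.0% and 9.23% of all genes tested. Those that fell included Maf (67.43 and 35.17 FPKM in KO cells), a regulator of resident macrophages, and Cebpd (9.16 and 4.36 FPKM), a factor of inflammatory responses. Among 15 immediate early genes the 2 that were at least 2-fold higher were Egr2 and Ier3 (8.29 and 20.24 FPKM), and Fos was at 43.21 and 33.34 FPKM and fell.

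Ptgs1, the constitutive cyclooxygenase, was at 11.14 and 70.19 FPKM in KO and 8.91 and 65.01 FPKM in WT cells, a KO count ratio of 6.298 (95% counting interval 5.81 to 6.84). Tbxas1, which makes thromboxane from its product, was at 43.95 and 101.00 FPKM in KO cells. These were the 2 of 12 compared eicosanoid genes at 2-fold or more, beside 1.23% higher and 0.305% lower over all genes compared. Hpgd, which breaks down prostaglandins, was at 36.88 and 22.51 FPKM and fell in edgeR's test, as did 4 other genes of this list. Of its 15 tested genes 5 rose. Over all genes tested 12.0% rose and 9.23% fell.

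Iron genes split. Tfrc, the transferrin receptor that brings iron in, was at 10.20 and 41.10 FPKM in KO and 16.56 and 63.25 FPKM in WT cells. Slc40a1, the iron exporter ferroportin, was at 7.87 and 2.02 FPKM in KO and 6.6 and 1.76 FPKM in WT cells, a KO count ratio of 0.257 (95% counting interval 0.213 to 0.309). Slc25a37, a mitochondrial iron carrier, was at 16.14 and 6.91 FPKM in KO cells. The importer transcript was higher and the exporter transcript lower after IL-4 in both genotypes. Of 13 iron genes tested with edgeR, Tfrc rose and 7 fell, beside 12.0% and 9.23% of all genes tested. The ferritin heavy chain Fth1, at 16282.3 and 11809.4 FPKM in KO cells, was among those that fell. Hfe, a regulator of iron uptake outside the list, was at 37.01 and 86.36 FPKM.

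Cx3cr1, the fractalkine receptor, had the lowest ratio among protein-coding genes apart from Rps27rt. It was at 78.32 and 23.69 FPKM in KO and 74.99 and 18.38 FPKM in WT cells. The KO count ratio was 0.302 (95% counting interval 0.287 to 0.318), and Cx3cr1 (chr9:120048683-120068296) fell by 1.83 ± 0.07 in edgeR's fit, with an adjusted p of 1.1e-07. Of 12 chemoattractant receptors compared it was the only one at 2-fold, beside 1.23% higher and 0.305% lower over all genes compared. In edgeR's test 8 of 16 rose and 8 fell, beside 12.0% and 9.23% of all genes tested. Cxcr4 was at 268.87 and 184.95 FPKM and Cxcr3 at 6.53 and 3.60 FPKM, and both fell. Among 11 compared chemokines Ccl7 (1.75 and 13.50 FPKM in KO, 3.61 and 15.96 FPKM in WT cells) and Ccl2 (6.46 and 23.07 FPKM in KO, 9.67 and 21.77 FPKM in WT cells), both of which attract monocytes, were at least 2-fold higher, and none was at least 2-fold lower.

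Rps27rt, with 84.38 expected counts in untreated KO cells and 0 in the other 3 libraries, is nearly identical to the ribosomal protein gene Rps27, so that reads could have been assigned to either copy and its ratio is uncertain. Among the 2-fold genes were also 9 genes of small RNAs, of which 7 had at most 13 counts in either KO library. These 7 and Rps27rt were not called by edgeR. Snora70 had an adjusted p of 0.254, and the rest did not pass edgeR's count filter, Rps27rt with 0 counts in 3 libraries. Of the other 2-fold genes, 98 higher and 20 lower ones were called by edgeR in the same direction, a count that follows in part from the use of the same KO libraries.

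Inflammatory genes with a sizeable ratio were lower. Of 16 compared genes of the inflammatory and NF-kB list 0 were higher and 5 lower by 1.5-fold, beside 3.32% and 1.60% of all genes, and the median log2 ratio was -0.19 in both genotypes. Nfkbiz, an atypical NF-kB regulator, was at 10.69 and 4.08 FPKM in KO and 11.69 and 3.42 FPKM in WT cells. Tnf was at 9.72 and 5.85 FPKM, Nlrp3, the inflammasome sensor, at 13.53 and 8.11 FPKM, and Irak3, an inhibitor of Toll-like receptor signalling, at 14.80 and 8.65 FPKM in KO cells, and all 3 fell. In edgeR's test 3 of 25 rose (Rel, Nfkb1 and Cd40) and 7 fell, beside 12.0% and 9.23% of all genes tested.

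Adhesion, matrix and lipid genes held single large ratios. Itgax, the integrin CD11c, was at 5.36 and 17.77 FPKM and Itgb3, the integrin beta 3 chain, at 2.71 and 8.08 FPKM in KO cells, while Itga4, the integrin alpha 4 chain, was at 20.85 and 9.67 FPKM. Of 24 compared matrix and repair genes 3 were at least 2-fold higher, namely Mmp13 (3.73 and 10.47 FPKM), a collagenase, Igf1 (76.27 and 159.30 FPKM) and Pdgfa (27.01 and 55.77 FPKM), both growth factors. None of them was at least 2-fold lower, and over all genes 1.23% were higher and 0.305% lower by this limit. In edgeR's test 9 of 31 matrix and repair genes rose and 10 fell, beside 12.0% and 9.23% of all genes tested. Thbs1 (66.70 and 43.11 FPKM) and Vegfa (33.25 and 21.59 FPKM) were among those that fell. Abca1, a cholesterol exporter, was at 14.54 and 6.29 FPKM, whereas its partner in efflux Abcg1 was at 27.87 and 43.78 FPKM, and Apoe, a lipid carrier, was at 5155.97 and 3903.18 FPKM. The MHC class II genes rose in 9 of 12 tested cases, beside 12.0% of all genes tested, with none at 2-fold in KO cells. Examples were Cd74, the invariant chain, at 181.25 and 304.97 FPKM and H2-Aa at 47.88 and 61.86 FPKM.

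The most abundant of the higher genes were Ap2m1, a clathrin adaptor subunit, at 143.70 and 317.35 FPKM, and Atp6v0a1, a subunit of the proton pump of lysosomes, at 122.80 and 287.08 FPKM in KO cells. Both rose, by 1.28 ± 0.06 and 1.34 ± 0.05 in edgeR's fit, with adjusted p-values of 2.61e-07 and 1.24e-07. Ms4a6d, a membrane protein of myeloid cells, was at 84.12 and 201.92 FPKM in KO and 86.89 and 208.93 FPKM in WT cells. Of 28 lysosomal genes compared, Atp6v0a1 alone was at least 2-fold higher and none was lower, beside 1.23% and 0.305% of all genes. In edgeR's test 5 of 28 rose and 3 fell, beside 12.0% and 9.23% of all genes tested. Ctsd, the protease cathepsin D, was at 6682.84 and 5408.92 FPKM and fell. The most abundant lower gene after Cd14 and Clec4d was Cd93, a receptor linked to adhesion and clearance, at 88.84 and 42.45 FPKM.

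Genes of mitochondrial metabolism and of ribosome synthesis differed by small amounts, mostly upward, while glycolysis genes were divided evenly. The edgeR counts of these lists stand beside 12.0% of all genes tested that rose and 9.23% that fell. Of 34 oxidative phosphorylation genes compared 33 had a KO log2 ratio above 0, as did 4074 of all 8187 genes, with a median of 0.15 and none at 1.5-fold, and 17 of 34 rose and 0 fell in edgeR's test, such as Atp5b, a subunit of ATP synthase, at 215.10 and 268.36 FPKM. Of 21 tricarboxylic acid cycle genes 19 were above 0, with a median of 0.15, and 11 of 23 tested rose and 1 fell. The one that fell was Acod1, which makes itaconate, at 3.08 and 1.58 FPKM in KO cells. Of 28 compared genes of ribosome and nucleotide synthesis 27 were above 0, with a median of 0.33, and 20 of 33 tested rose, led in KO cells by Nop58, a nucleolar protein, at 8.34 and 14.51 FPKM. Of 33 tested genes of the ATF4 amino acid response 12 rose and 0 fell, such as Atf5 at 35.73 and 54.84 FPKM. Among 20 compared glycolysis genes 10 were above 0 and 10 below, none reached 2-fold, and in edgeR's test 4 of 23 rose and 4 fell, with Pfkp, a phosphofructokinase, at 23.58 and 35.70 FPKM and Gapdh at 1480.85 and 1469.19 FPKM. Of 24 compared chaperone and unfolded protein response genes Pdia4, a protein disulfide isomerase, alone reached 2-fold, at 30.11 and 69.76 FPKM, while Xbp1, a regulator of that response, was at 66.04 and 65.95 FPKM.

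**Figure D3:**
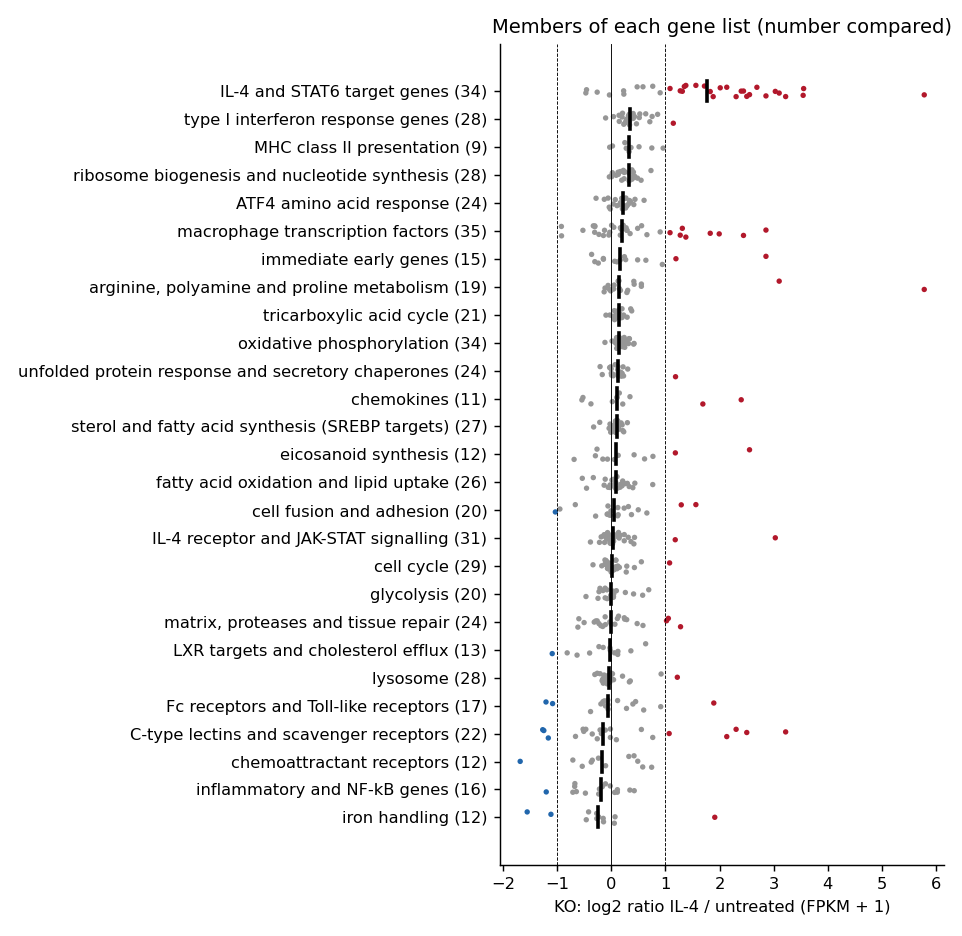
KO log2 ratios of FPKM + 1, IL-4 over untreated, for the compared members of each gene list with 9 or more of them. Each point is 1 gene, the black bars are medians and the dashed lines 2-fold differences, and the median of the IL-4 and STAT6 targets (1.77) lies right of all other list medians, which run from -0.25 to 0.34.

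The KO response was next set beside the WT response. All 101 genes that were at least 2-fold higher in KO cells had a WT log2 ratio above 0, 88 of them (87.1%) at 2-fold or more, and 16 of the 25 lower genes (64%) were at least 2-fold lower in WT cells. In the other direction, 86 of the 104 genes at least 2-fold higher in WT cells (82.7%) and 15 of the 31 lower ones (48.4%) met the limit in KO cells. WT cells had 1.26% of genes higher and 0.377% lower by this limit. Over the 96 higher protein-coding genes the median log2 ratio was 1.42 in KO and 1.43 in WT cells, and over the 21 lower ones it was -1.14 in both. These genes were picked by their KO ratio. When protein-coding genes were instead picked by the mean of both responses, 98 were at least 2-fold higher, and the KO ratio was the smaller one in 56 of them, with a median difference of -0.07. Across protein-coding genes the KO and WT ratios had a Spearman correlation of 0.704 and a Pearson correlation of 0.859, given as a description, since genes are not independent and levels enter both axes.

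**Figure D4:**
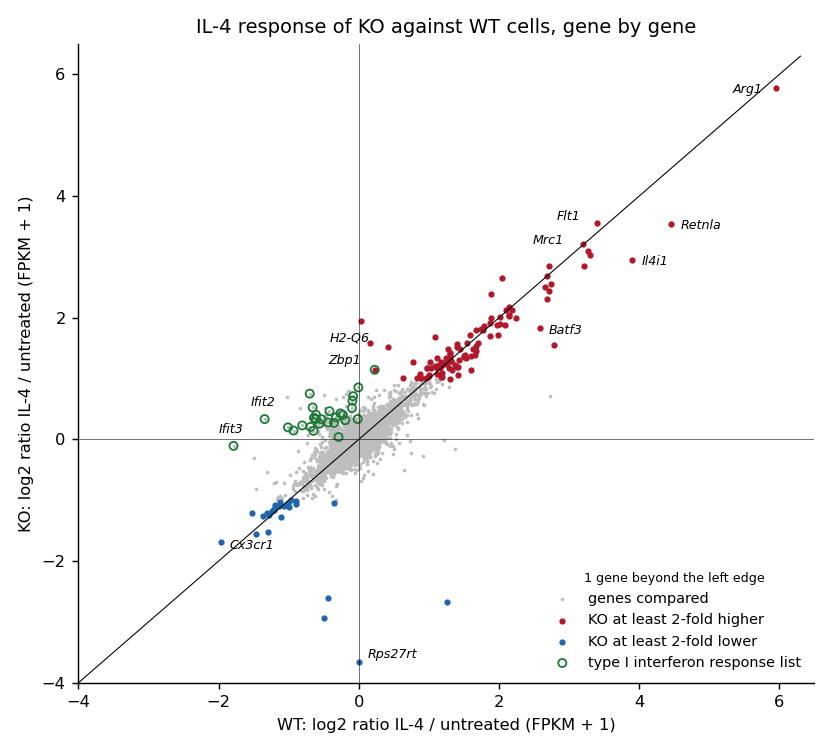
KO log2 ratio (vertical) against WT log2 ratio (horizontal) of FPKM + 1, IL-4 over untreated, for each compared gene, with the line of equal ratios. Red and blue points are the 101 higher and 25 lower genes in KO cells, green circles are type I interferon response genes, most of which lie above the horizontal and left of the vertical zero line.

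Differences of at least 2-fold between the responses were few. The KO minus WT difference of log2 ratios reached 2-fold upward in 19 of 8351 genes (0.228%) and downward in 11 (0.132%), and in protein-coding genes in 13 and 2. It reached 1.5-fold in 78 (0.934%) and 32 genes (0.383%). The 2 downward ones were Rps27rt and Tmem254c, both with near-identical copies in the genome, and are uncertain. The next lowest differences were those of Il4i1 (-0.94), Retnla (-0.92), Batf3 (-0.75) and Rbpms (-0.70), of which Rbpms was lower after IL-4 and by more in KO cells. Il4i1 and Retnla ended at lower levels in treated KO than in treated WT cells, as given above. Batf3, a factor of dendritic cell development, was at 0.83 and 5.49 FPKM in KO and 0.34 and 7.01 FPKM in WT cells, from 12 counts in untreated KO cells. Rbpms, an RNA-binding protein, was at 7.54 and 3.13 FPKM in KO and 5.41 and 4.02 FPKM in WT cells, and its call by edgeR (adjusted p of 0.00327) was lost with DESeq2 (adjusted p of 0.0839). Ablim1, an actin-binding protein, was the gene among those with the highest KO ratios whose KO response exceeded the WT response most, with 0.22 and 6.68 FPKM in KO and 0.22 and 4.05 FPKM in WT cells. Its count ratios of 29.7 (95% counting interval 20.6 to 44.7) and 18.1 (12.4 to 27.3) overlap in their intervals. No difference between the genotypes' responses could be tested with 1 library a group.

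Among the protein-coding genes named by their difference, those with the most positive values were Ifit3, Ifit2 and Ifit1 of the type I interferon response list. Ifit3, an antiviral protein, was at 20.22 and 18.72 FPKM in untreated and treated KO cells and at 22.43 and 5.79 FPKM in WT cells. Ifit2 was at 11.43 and 14.67 FPKM in KO and 11.96 and 4.11 FPKM in WT cells, and Ifit1 at 9.87 and 11.47 FPKM in KO and 9.69 and 4.31 FPKM in WT cells. In these genes the treated WT library was the low one, and the other 3 libraries lay close together. The KO minus WT differences were 1.68, 1.68 and 1.21. Zbp1, a sensor of nucleic acids, was at 14.48 and 33.22 FPKM in KO and 15.21 and 17.98 FPKM in WT cells, so that here the treated KO library was the high one. H2-Q6, an MHC class I gene with close copies that could share reads, was at 2.07 and 7.77 FPKM in KO and 3.52 and 5.01 FPKM in WT cells. Zbp1 and H2-Q6 rose in edgeR's test (adjusted p-values of 0.0165 and 0.00911), and neither call held with DESeq2 (0.608 and 0.0816) or limma (0.11 and 0.0811).

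Of the 35 members of this list 28 were compared. Their median log2 ratio was 0.34 in KO and -0.49 in WT cells, and the KO ratio was above the WT ratio in 28 of 28, by 0.33 to 1.68 with a median of 0.86. Over all compared genes the KO ratio was the higher one in 53.8%. In 26 of the 28 the KO ratio was above 0 and the WT ratio below 0, which held for 14.3% of all compared genes. The list was chosen with results of these data known, and its members share the same 4 libraries, so that these counts are a description. In KO cells alone Zbp1 was at least 2-fold higher, 5 members were at least 1.5-fold higher and none was lower by either limit. Over all genes 1.23% were at least 2-fold and 3.32% at least 1.5-fold higher. In untreated cells the KO minus WT difference in log2(FPKM + 1) had a median of 0.03 and ran from -0.18 to 0.22, whereas after IL-4 its median was 0.86. Isg15, a ubiquitin-like protein, was at 18.41 and 31.71 FPKM in KO cells, and Irf7, a factor that amplifies interferon production, at 75.23 and 136.83 FPKM. In edgeR's fit, where opposite movements cancel, 2 of 34 members rose (Irf7 and Zbp1) and 1 fell (Ifit3b). Over all genes tested 12.0% rose and 9.23% fell. Ifit1, Ifit2 and Ifit3 had log2 IL-4 terms of -0.36, -0.42 and -0.87 in that fit. Their KO log2 ratios were 0.20, 0.33 and -0.11, and their WT ratios -1.01, -1.34 and -1.79. Adjusted p-values from edgeR were 0.323, 0.377 and 0.0672, and 0.017, 0.00582 and 1.01e-08 without the filter on low counts. They are for 1 term over both genotypes and do not show a response of the KO pair. Of the 13 protein-coding genes with a KO minus WT difference of at least 2-fold, 8 were on the interferon list, and the other 5, named after their values were seen, were Ifi209, Rtp4, H2-Q6, Phf11d and Ifi208. Whether the treated KO or the treated WT culture stands apart in these genes cannot be told with 1 library each.

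**Figure D5:**
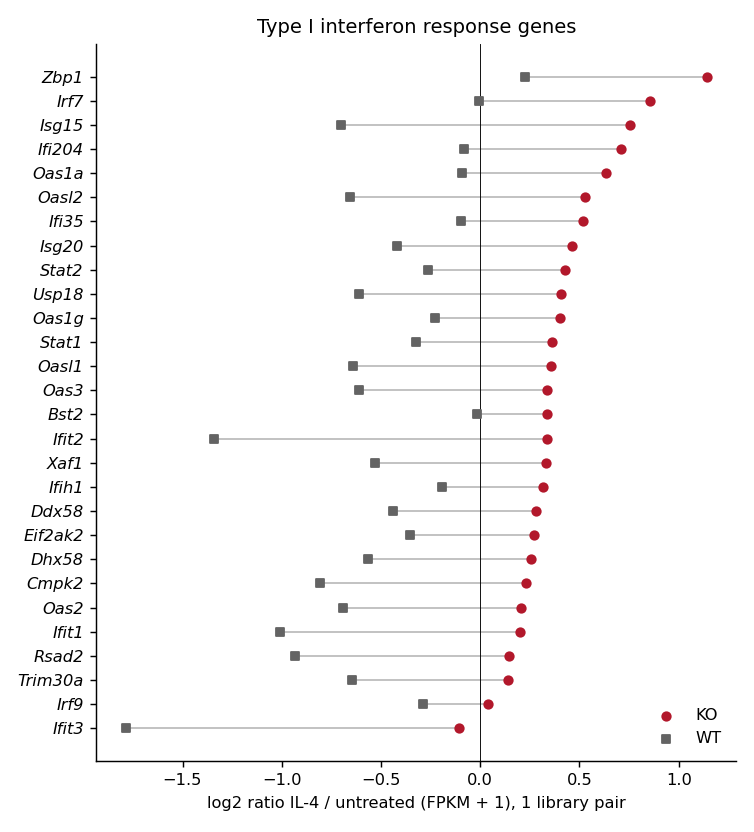
Log2 ratio of FPKM + 1, IL-4 over untreated, for the 28 compared type I interferon response genes, with KO as circles and WT as squares and 1 library pair behind each symbol. The circle lies right of the square in all 28, and 26 lines cross zero.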

How the data were processed

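RNA of the 4 bone marrow-derived macrophage cultures was sequenced, 1 library per group. Reads were processed with Bowtie2 2.2.5, RSEM and the mm10 build, per the submitters' processing notes; for RSEM no version is named there. The deposited files hold, per the file headers, an expected count and an FPKM value for each gene of a library. The deposited FPKM values are scaled within each library, and a gene a file does not list was set to 0. A gene model that shares reads with a copy gets an estimated part of them.

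The pair ratio is log2 of FPKM with a pseudocount of 1, over genes with at least 5 FPKM in either library. The IL-4 term was fitted with edgeR 4.0.16 in R 4.3.3 (quasi-likelihood, TMM, filterByExpr, genotype as covariate) on expected counts rounded to whole numbers, with Benjamini-Hochberg adjustment over all 12879 genes tested. Each SE is the size of the log2 change over the root of its quasi-likelihood F value. Count ratios were scaled by library totals and have exact 95% intervals. Alternatives used DESeq2 1.42.0, limma 3.58.1, other pseudocounts, filters, fold limits and scalings. The edgeR step was tested on simulated data. Python 3.11.15 was used for the rest.

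Genes named were Slc6a8, the 12 protein-coding genes with the highest and the 12 with the lowest KO ratio (at least 50 counts in the higher library), the 6 with the highest and the 6 with the lowest KO minus WT difference among genes at least 2-fold changed in either genotype, the 5 most abundant on each side, and members of 37 gene lists with 858 entries. Genes outside this rule, such as Azin2 and Hfe, were named after their values were seen. The comparison, its members and the lists were chosen with earlier results of these data known. Symbols and promoter windows came from RefSeq tables (GRCm38.p6), which matched 17374 of 17416 genes.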

Additional observations from a re-analysis of the deposited data

Results flagged for a closer look

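Opposite directions in the genotypes were seen for Ifit1, whose level was higher after IL-4 in the KO pair and lower in the WT pair, with a KO minus WT difference of 1.21 log2 units. Ifit2 showed the same, with a difference of 1.68. The KO log2 ratios of Ifit1 and Ifit2 were small, at 0.20 and 0.33, against -1.01 and -1.34 in the WT pair. Both KO values lay between the 5th and 95th percentiles of all genes compared in KO cells (-0.36 and 0.43). Over the 28 compared type I interferon response genes the median difference was 0.86. Each of these rests on 1 library per group, and the difference was not tested.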

How the results depend on the processing

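No paired analysis was possible because every group holds 1 replicate, and for the same reason no library could be left out in turn. All alternatives here were listed together with the main settings. The numbers of genes at least 2-fold higher and lower depended on the limits set. With a pseudocount of 5 there were 59 and 9 in KO cells, 9 lower in WT cells, and 7 and 5 for the KO minus WT difference. From 1 FPKM they were 170 and 75 in KO cells, 166 and 92 in WT cells, and 110 and 78 for the difference. With no filter on low values they were 170 and 75, 166 and 92, and 113 and 82. A 1.5-fold limit gave 272 and 131, 260 and 164, and 78 and 32, and a 3-fold limit 40 and 5, 45 and 4, and 6 and 6. Downward differences numbered 3 with TMM-scaled CPM and 2 over protein-coding genes. The IL-4 term had 662 and 401 calls with DESeq2 and 836 and 747 with limma on log2(FPKM + 1), where the cause was not tested. The other 29 alternative counts stayed within 1.5 times the value in the report. Of the alternative tests of named genes 174 kept their side of the threshold, 7 lost a call (Retnla, Zbp1, H2-Q6 and Rbpms with DESeq2, and the last 3 with limma) and 4 gained one (Ifit1, Ifit2 and Ifit3 with no filter on low counts, and Ifit3 over protein-coding genes), and no direction reversed among them. Of 38 named KO ratios, 25 shifted by more than the centre-to-edge distance of their log2 counting interval with a pseudocount of 5. The number was 9 with 0.1 and 7 with TMM-scaled CPM. Retnla and Rps27rt have unbounded intervals and could not be counted as shifted. With a pseudocount of 5, 12 of the 33 at 2-fold no longer reached it, namely Slc40a1, Clec4n, Nfkbiz, Mamdc2, Clec4e, Carmil1, Slc25a37, Rbpms, Cd93, Zbp1, H2-Q6 and Batf3, and Ablim1 was at 1.16 against 4.41 with 0.1, since the pseudocount weighs most on low levels. The median of the chemoattractant receptors, -0.17 in KO cells, was 0.10 from 1 FPKM, when low genes entered. The median of the IL-4 and STAT6 targets was 1.01 with a pseudocount of 5. Genes of few counts, such as Tarm1 and Batf3, have ratios of low precision at this depth.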
